A study of Mus musculus with 9 samples.

Results

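The 44 genes described here encode proteins that license replication origins, start the replication fork, copy DNA and supply its nucleotides. They were chosen by name and known role and not by their expression, though with earlier results of these data known, as 44 of the 55450 genes counted. All 44 were found, and all 44 were among the 19371 genes that passed the filter of a mean of at least 5 counts over the libraries. The lowest count of any of them in any library was 45.

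The study compared the developing pituitary gland with the mature one by RNA sequencing. Rathke's pouch, the ectodermal fold that gives rise to the anterior and intermediate lobes, was taken at embryonic day (e)13.5 from 7 *Sox2Egfp/+* embryos. The adult group, 2 mice at postnatal week 8, gave glands without the posterior lobe, and their source is labelled as anterior pituitary. Both groups carry the strain label 129Sv/c57BL6J, received no treatment that the labels name, and the numbers of the samples stand for separate animals. No allele is given for the adults in the sources used here. Each stage held males and females, but the sex of each sample is not given and was not used. Counted read pairs were 16738863, 28537311, 24816013, 18825731, 24687556, 22393725 and 25755469 in embryos 1 to 7, and 36421545 and 31191117 in adults 1 and 2. Levels are given as CPM, each library's counts brought to the same total after TMM scaling. At these depths 3 counts were worth 0.0727 to 0.220 CPM, well under the lowest level of any of the 44 genes, 1.27 CPM.

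Embryos 1 and 4 stood apart from the other libraries. Read pairs counted on genes were 59.7% and 62.8% of all pairs in them, while they were 73.9% to 80.0% in the remaining 5 embryos, 84.0% in adult 1 and 83.7% in adult 2. Pairs aligned in several places made up 21.7% and 26.1%, as opposed to 14.1% to 19.7% in those 5, 7.16% in adult 1 and 7.52% in adult 2. The 8 erythroid markers, which mark red blood cells, summed to 171191 and 213896 CPM in embryos 1 and 4, against 19078, 18701, 15673, 19019 and 6123 CPM in embryos 2, 3, 5, 6 and 7 and 763 and 1977 CPM in the adults. *Hbb-y*, a globin of embryonic red cells, was the most abundant of them in every embryo, and *Hbb-bs* was in both adults. Of the 8, 7 were embryo high, against 11.3% of all genes tested, or 5 without embryos 1 and 4, against 11.5%. With the libraries corrected for transcript length and GC content, 3 were embryo high, against 8.47%. Embryo high means higher in the embryo at an adjusted p below 0.05 and a fold change above 4. The part of these transcripts in the results was not tested, and the counts over the replication, cell cycle exit and mitosis lists are also given without embryos 1 and 4.

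The stage labels were checked against markers. *Hesx1*, an early pouch transcription factor, measured 11.0 to 40.4 CPM in the embryos (median 22.4), against 0.339 and 0.562 CPM in adults 1 and 2. The 7 endocrine markers summed to 872 to 1921 CPM in the embryos, far under the 151258 and 159771 CPM of the adults. Growth hormone (*Gh*) was the most abundant of them in adult 2 and prolactin (*Prl*) in adult 1, and *Gh*, *Prl*, *Lhb* and *Pou1f1* were each under 3 CPM in every embryo. *Tshb* did not separate the stages, at 76.4 to 432 CPM in the embryos (median 219.5), against 229 and 440.1 CPM in adults 1 and 2. The progenitor marker *Sox2* measured 26.5 to 44.8 CPM in the embryos (median 39.4), against 64.1 and 56.8 CPM in adults 1 and 2.

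Markers of neighbouring tissue were present in the embryo libraries. The 6 mesenchyme markers summed to 1546, 1956, 581, 918, 1480, 1290 and 2147 CPM in embryos 1 to 7 and 582 and 381 CPM in the adults. Of the 6, 4 were embryo high, against 11.3% of all genes tested, and *Prrx1* was adult high, against 14.6%. *Col3a1* had the highest median of them in the embryos. Of the 3 cartilage markers, *Col2a1* measured 155 to 362 CPM in the embryos (median 247), against 13.9 and 7.53 CPM in adults 1 and 2, while *Matn1* was too low to be tested. Of the 6 neural markers, *Nkx2-1* and *Rax*, transcription factors of the ventral diencephalon, were embryo high, *Tubb3*, *Stmn2* and *Elavl3* did not pass the test, with *Elavl3* lower in 6 embryos than in both adults, and *Neurog2* was too low to be tested. The 6 summed to 107 to 438 CPM in the embryos and to 105 and 72.6 CPM in adults 1 and 2. The 4 endothelial markers summed to 110.1 to 399 CPM in the embryos and to 106 and 63.7 CPM in adults 1 and 2. The 4 macrophage markers summed to 93.9 to 244 CPM and 80.0 and 122 CPM, and the 3 skeletal muscle markers to 0.586 to 6.49 CPM and 0.533 and 0.309 CPM. The pair of posterior lobe glia markers summed to 6.30 to 27.1 CPM in the embryos and to 39.2 and 50.0 CPM in adults 1 and 2. Whether these cell types contributed to the levels of the replication genes was not tested.

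Replication begins when the origin recognition complex, with *Cdc6* and *Cdt1*, loads the ring-shaped MCM helicase onto DNA in G1. At the start of S phase, CDC45 and GINS join the ring and open the fork, after which primase and the polymerases copy both strands behind it. Many of these genes are transcribed under E2F factors as cells enter the cycle. Rathke's pouch at this stage is a proliferating epithelium, whereas most cells of the adult gland are differentiated and divide rarely.

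Most of the 44 genes had more transcript in the embryo. Each gene was fitted with edgeR's quasi-likelihood test over all 19371 genes, with Benjamini-Hochberg adjustment. A gene was called embryo high or adult high at an adjusted p below 0.05 and a fold change above 4, a log2 fold change beyond 2. By this rule 13 of the 44 genes (29.5%) were embryo high, where 2182 of all genes tested (11.3%) were. None was adult high (0 of 44), where 2819 of all genes tested (14.6%) were. The count of adult high genes was also 0 at an unadjusted p below 0.05 with the same fold change, and 0 by DESeq2's Wald test. By adjusted p alone, 36 of the 44 (81.8%) were higher in the embryo, against 24.0% of all genes tested, and 3 (6.82%) were higher in the adult, against 27.4%. The 3 were *Orc2*, *Pola1* and *Rfc1*, which were also the only 3 of the 44 higher in the adult at an unadjusted p below 0.05, with edgeR and with DESeq2. None of the 3 passed once the libraries were corrected for transcript length and GC content.

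The separation of the libraries gave much the same picture. All 7 embryos lay above both adults for 36 of the 44 genes, against 26.2% of all genes tested, and all 7 lay below both adults for *Orc2*, *Pola1* and *Rfc1*, against 32.9%. The groups overlapped for the other 5, *Mcm4*, *Mcm10*, *Gins3*, *Pold3* and *Ccne2*. The log2 fold change was above 0 for 40 of the 44 genes, and its median was 1.61, against -0.04 over all genes tested. Leaving out embryos 1 and 4 gave 15 embryo high genes, against 11.5% of all genes tested, 0 adult high genes, against 16.2%, and a median of 1.73. The 2 genes gained were *Mcm3* and *Mcm7*, and by adjusted p alone 38 were then higher in the embryo, against 26.9% of all genes tested, and 2 in the adult, against 29.9%.

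The counts leaned on the adult pair. Without adult 1 there were 18 embryo high genes, against 1618 of all 19017 genes tested, and without adult 2 there were 11, against 1482 of 19076. By adjusted p alone, 34 genes were higher in the embryo and 1 in the adult without adult 1, against 14.0% and 18.9% of all genes tested. Without adult 2 these were 25 and 1, against 12.7% and 17.9%, and the 13 genes that no longer passed included *Orc1*, *Cdc6*, *Cdt1*, *Pcna*, *Fen1*, *Lig1* and *E2f1*. *Orc2* failed the test when any 1 of embryos 1, 2, 3, 4 and 5 or either adult was left out, and *Pola1* was the only adult higher gene left without either adult. With library size alone 33 were higher in the embryo, against 18.4% of all genes tested, and *Mcm10*, *Pcna* and *Rpa1* no longer passed.

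Summed over the 44 genes, transcripts came to 2946, 3174, 4143, 3387, 2918, 3910 and 2612 CPM in embryos 1 to 7, and 1166 and 963 CPM in adults 1 and 2. The lowest embryo stood well above the higher adult, and the mean of the embryos was 3.10 times that of the adults. In whole tissue, a smaller share of cycling cells and less of each transcript per cell cannot be told apart.

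**Figure D1:**
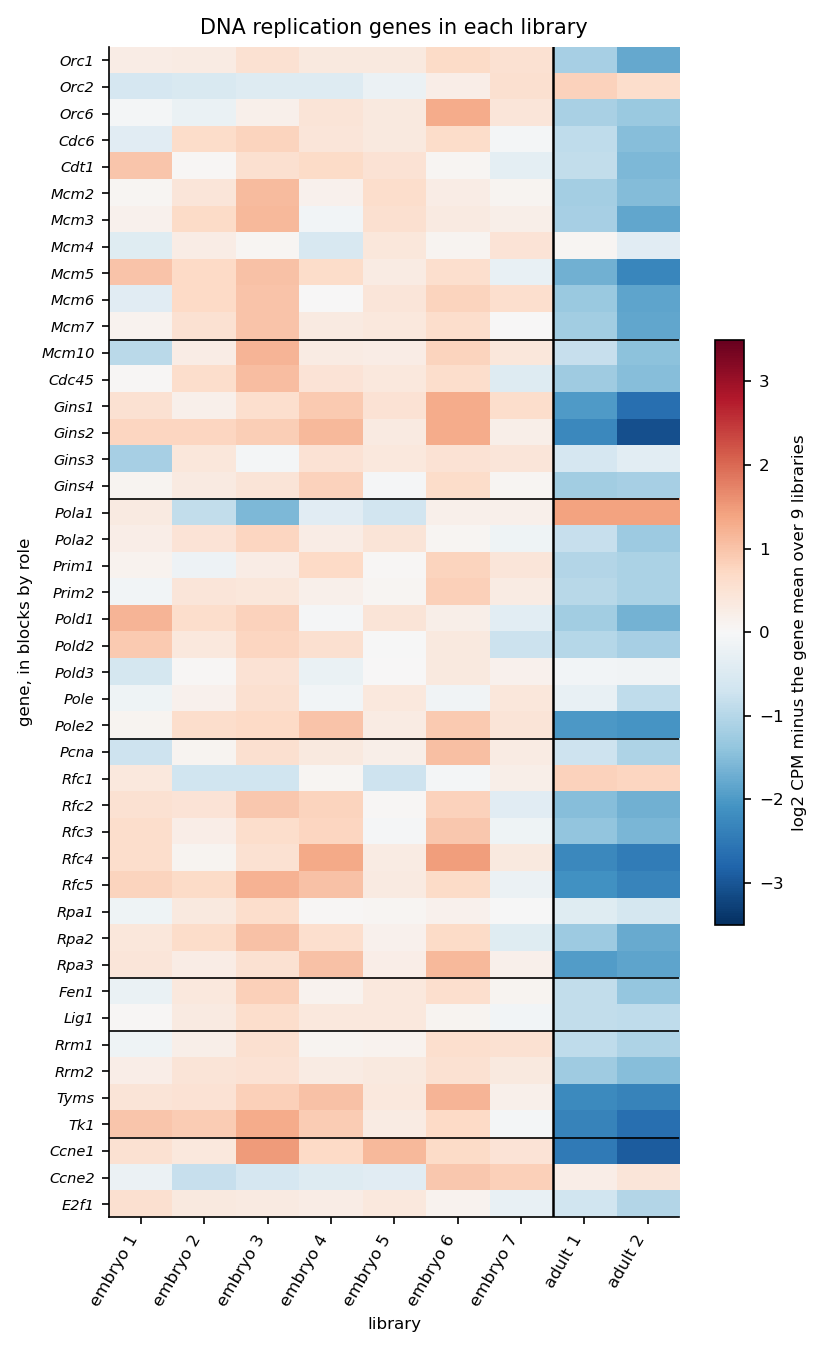
Level of each of the 44 genes in each of the 9 libraries, as log2 CPM minus the gene's mean over the libraries, with genes in blocks by role. The 2 adult columns are the lowest for 36 genes, while *Orc2*, *Pola1* and *Rfc1* are highest there.

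By role, the share of embryo high genes was 18.2% in origin licensing, 33.3% in helicase activation, 11.1% in primase and polymerases, 55.6% in the clamp, clamp loader and RPA, 0% in Okazaki fragment joining, 50.0% in nucleotide supply and 33.3% in S-phase entry, against 11.3% of all genes tested. After the length and GC correction the shares were, in the same order, 36.4%, 50.0%, 22.2%, 33.3%, 0%, 75.0% and 33.3%. Of all genes tested, 8.47% were then embryo high. The order of the roles thus changed with the correction, and the shares rest on 2 to 11 genes each. Without the correction, the share higher in the embryo by adjusted p alone was 66.7% to 100% in the 7 roles, against 24.0%.

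Origin licensing was represented by 11 genes, of which 2 were embryo high and 9 were higher in the embryo by adjusted p alone. The median log2 fold change of the 11 was 1.77. Gene positions are those of the GENCODE annotation on GRCm38. *Mcm5*, a subunit of the MCM ring (chr8:75109569-75128439, plus strand), measured 124 to 303 CPM in the embryos (median 230.5), against 46.0 and 30.7 CPM in adults 1 and 2. Every embryo was well above both adults, and the log2 fold change of *Mcm5* was 2.57 ± 0.38 (SE, edgeR adjusted p = 0.000114). *Mcm6*, its partner in the ring (chr1:128331590-128359664, minus strand), measured 92.8 to 242 CPM in the embryos (median 185), against 50.1 and 33.7 CPM in adults 1 and 2, with the lowest embryo, embryo 1, still above both adults. The log2 fold change of *Mcm6* was 2.06 ± 0.38 (SE, edgeR adjusted p = 0.000581), and it fell under the fold change threshold without adult 2, at 1.79 (edgeR adjusted p = 0.0209), with library size alone, at 1.87, and with the replicate block, at 1.77.

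*Mcm2*, *Mcm3* and *Mcm7* rose to a similar extent but stayed just under the threshold, with log2 fold changes of 1.77, 1.92 and 1.95. *Mcm3* and *Mcm7* passed it without embryos 1 and 4, at 2.09 and 2.05. They also passed it when embryo 1, embryo 4 or adult 1 alone was left out, and *Mcm7* also without embryo 7. *Mcm4* was the exception in the ring. It measured 25.3 to 51.8 CPM in the embryos (median 39.4), against 38.8 and 28.3 CPM in adults 1 and 2. The adult values lay inside the range of the embryos, and the log2 fold change was 0.24 ± 0.31 (SE, edgeR adjusted p = 0.537).

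As the 6 MCM proteins form 1 ring, their transcripts were also compared per kb of the longest protein-coding transcript. In the embryos the mean level ran from 11.0 CPM per kb for *Mcm4* to 67.4 CPM per kb for *Mcm5*, a 6.11-fold range. In the adults it ran from 8.47 CPM per kb for *Mcm3* to 16.2 CPM per kb for *Mcm7*, a 1.91-fold range. The subunits therefore lay closer together in the adult libraries, and *Mcm4* was the lowest of the 6 only in the embryos.

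*Cdc6*, which helps to load the ring (chr11:98907801-98923940, plus strand), measured 9.67 to 21.8 CPM in the embryos (median 17.1), against 6.84 and 4.55 CPM in adults 1 and 2. All embryos were above both adults, with a log2 fold change of 1.55 ± 0.39 (SE, edgeR adjusted p = 0.00433). *Orc1*, the origin recognition subunit that is most tied to the cell cycle, measured 5.20 to 6.98 CPM in the embryos (median 5.58), against 1.94 and 1.27 CPM in adults 1 and 2, and its log2 fold change was 1.88 ± 0.42 (SE, edgeR adjusted p = 0.00205). It was among the steadiest of the 44 genes between embryos, and it passed the fold change threshold without adult 1. *Orc6* and *Cdt1* rose by 1.64 and 1.58 on the log2 scale. *Cdc6*, *Orc1* and *Cdt1* did not pass the test without adult 2. *Orc2*, a core subunit of the same complex, went the other way. It measured 15.5 to 34.4 CPM in the embryos (median 17.2), against 41.3 and 36.2 CPM in adults 1 and 2, so that every embryo was below both adults, with a log2 fold change of -0.87 ± 0.32 (SE, edgeR adjusted p = 0.0326). That call was lost without embryo 1, 2, 3, 4 or 5 or either adult.

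Promoters were examined for the letters of the E2F site. The RefSeq promoter table for GRCm38.p6 gives windows of 250 bases before to 50 bases after a transcript's start, and 36 of the 44 genes had at least 1 window. *Ccne2*, *Gins1*, *Gins2*, *Gins4*, *Mcm4*, *Pole*, *Prim2* and *Rfc2* had none. The letters TTTCCCGC, TTTGGCGC, TTTCGCGC or TTTGCCGC were searched on both strands, and they were found for 14 of the 36 genes (38.9%). They were found for 554 of 13185 tested genes with a window (4.20%) and in 744 of all 32851 windows (2.26%). Below, 60 bases around the matches are printed 5′ to 3′ on the strand of the gene, with the matched letters in capitals. They are from *Mcm5* and *Mcm6*, both embryo high, from *Cdc6*, and from *Pola1*, the gene with the lowest log2 fold change of the 44.
*Mcm5*: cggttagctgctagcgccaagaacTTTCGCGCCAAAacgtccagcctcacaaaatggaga
*Mcm6*: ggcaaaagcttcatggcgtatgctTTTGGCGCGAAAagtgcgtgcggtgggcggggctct
*Cdc6*: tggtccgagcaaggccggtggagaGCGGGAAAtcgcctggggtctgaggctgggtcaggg
*Pola1*: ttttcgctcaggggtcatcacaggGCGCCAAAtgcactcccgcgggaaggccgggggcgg
The *Mcm5* stretch is chr8:75109332-75109391 on the plus strand, from -177 to -118 relative to the start. The *Mcm6* stretch is chr1:128359780-128359839 on the minus strand, from -134 to -75. In both, a pair of matches in opposite orientation overlap, so that 1 run of capitals holds 2 matches. A further match of *Mcm6*, at -47, lies outside the stretch printed. The *Cdc6* stretch is chr11:98907989-98908048 on the plus strand, from -162 to -103, and lies in an intron of a longer annotated *Cdc6* transcript. The *Pola1* stretch is chrX:93632258-93632317 on the minus strand, from -162 to -103. None of the 4 stretches holds a base of an annotated exon, and those of *Mcm5*, *Mcm6* and *Pola1* lie in no annotated gene.

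The median log2 fold change was 1.89 for the 14 genes with the E2F letters, ranging from -1.68 to 2.64, and 1.58 for the 22 genes with a window and no match, ranging from -0.94 to 3.50. The letters CCAAT were found for 61.1% of the 36 genes and 41.9% of tested genes, and TTTGAA or TTCGAA, letters of the CHR element, for 19.4% and 16.5%. None of the 3 sets of letters contains another. A match is a description of the window and not a site shown to be bound.

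Helicase activation was represented by 6 genes, of which 2 were embryo high and 5 were higher by adjusted p alone, with a median log2 fold change of 1.70. Both embryo high genes encode GINS subunits, which hold the active helicase together. *Gins2* (chr8:120578633-120589304, minus strand) measured 53.8 to 116 CPM in the embryos (median 79.6), against 9.82 and 5.62 CPM in adults 1 and 2. The lowest embryo was more than 5 times the higher adult, with a log2 fold change of 3.41 ± 0.41 (SE, edgeR adjusted p = 1.69e-05). Reads on its opposite strand, where *Gse1* and *Gm20388* overlap it, made up 34.2% of the reads on both strands together. *Gins1* (chr2:150905400-150931280, plus strand) measured 19.6 to 42.2 CPM in the embryos (median 26.0), against 4.34 and 2.76 CPM in adults 1 and 2, with a log2 fold change of 2.98 ± 0.39 (SE, edgeR adjusted p = 3.88e-05). Again no embryo came near the adults.

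*Gins4* rose less, by 1.57 on the log2 scale, and *Gins3* measured 3.37 to 10.7 CPM in the embryos (median 9.77), against 4.97 and 5.76 CPM in adults 1 and 2. Embryo 1 lay below both adults for *Gins3* and the other 6 embryos above, and the log2 fold change was 0.71 ± 0.43 (SE, edgeR adjusted p = 0.182). Without embryo 1 it was 0.90 (edgeR adjusted p = 0.0351). Per kb, the mean level of the GINS subunits in the embryos ran from 3.47 CPM per kb for *Gins3* to 48.8 CPM per kb for *Gins4*. In the adults it ran from 1.98 CPM per kb for *Gins2* to 16.5 CPM per kb for *Gins4*. *Gins4* was thus the most abundant of the 4 at both stages, and *Gins2* moved from the lowest in the adults to near *Gins1* in the embryos.

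*Cdc45*, the helicase cofactor, rose by 1.83 on the log2 scale. *Mcm10*, which acts at the step of fork opening, measured 7.69 to 33.9 CPM in the embryos (median 18.0), against 8.46 and 5.45 CPM in adults 1 and 2. Embryo 1 fell between the adults and the other 6 embryos lay above both. The log2 fold change of *Mcm10* was 1.51 ± 0.46 (SE, edgeR adjusted p = 0.0140), a call lost without adult 2.

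Primase and the polymerases were represented by 9 genes, of which 1 was embryo high, as large a share as over all genes tested, and 6 were higher in the embryo by adjusted p alone, with a median log2 fold change of 1.36. *Pole2*, the second subunit of the leading strand polymerase epsilon (chr12:69201773-69228195, minus strand), measured 9.67 to 17.9 CPM in the embryos (median 13.7), against 2.23 and 2.16 CPM in adults 1 and 2. Every embryo was more than 4 times either adult, and *Pole2* had a log2 fold change of 2.64 ± 0.39 (SE, edgeR adjusted p = 0.000108). *Pole*, the catalytic subunit, measured 14.4 to 23.8 CPM in the embryos (median 18.0), against 13.5 and 8.60 CPM in adults 1 and 2. All embryos lay above both adults, but by little, and the log2 fold change of 0.73 ± 0.32 (SE, edgeR adjusted p = 0.0736) did not pass. Without embryo 1 it did, at 0.83 (edgeR adjusted p = 0.0395).

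The polymerase alpha and primase complex lays down primers, and its 4 genes did not move together. *Pola1*, the catalytic subunit (chrX:93304767-93632155, minus strand), measured 2.40 to 8.79 CPM in the embryos (median 5.43), against 18.9 and 18.7 CPM in adults 1 and 2. Every embryo was below both adults, embryo 3 the lowest and embryo 1 the highest. The log2 fold change was -1.68 ± 0.41 (SE, edgeR adjusted p = 0.00355). The partners *Pola2*, *Prim1* and *Prim2* rose by 1.34, 1.41 and 1.36 on the log2 scale, each with all embryos above both adults, and *Pola2* did not pass without adult 2. Per kb, the mean level of *Pola1* was 1.10 CPM per kb in the embryos and 3.52 CPM per kb in the adults, the lowest of the 4 at both stages, and that of *Prim1*, the highest, was 31.0 and 11.7 CPM per kb.

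Polymerase delta copies the lagging strand. Its catalytic subunit *Pold1* rose by 1.91 and *Pold2* by 1.46 on the log2 scale. *Pold1* passed the fold change threshold without embryo 4, embryo 7 or adult 1, and *Pold2* did not pass the test without adult 2. *Pold3*, an accessory subunit, measured 25.7 to 56.3 CPM in the embryos (median 40.9), against 36.8 and 36.4 CPM in adults 1 and 2. Embryos 1 and 4 lay below the adults and the other 5 above, and its log2 fold change of 0.19 ± 0.29 (SE, edgeR adjusted p = 0.614) took the opposite sign, -0.014, when libraries were scaled by their size alone.

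The clamp, the clamp loader and the single-strand binding protein RPA were represented by 9 genes, of which 5 were embryo high and 8 were higher by adjusted p alone. Their median log2 fold change was 2.00. The clamp loader opens the PCNA ring and places it on DNA. *Rfc4* (chr16:23113943-23127737, minus strand) measured 60.3 to 153 CPM in the embryos (median 81.6), against 11.8 and 10.3 CPM in adults 1 and 2, with embryos 4 and 6 the highest. The log2 fold change of *Rfc4* was 3.09 ± 0.44 (SE, edgeR adjusted p = 7.02e-05). *Rfc5* (chr5:117378103-117389047, minus strand) measured 51.7 to 138 CPM in the embryos (median 96.3), against 13.8 and 12.0 CPM in adults 1 and 2, with a log2 fold change of 2.91 ± 0.39 (SE, edgeR adjusted p = 4.77e-05). For both genes the lowest embryo was more than 3 times the higher adult. Reads opposite to *Rfc5* made up 23.5% of the reads on both strands together.

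*Rfc2* was also embryo high, at 2.10 ± 0.37 (SE, edgeR adjusted p = 0.000403), and *Rfc3* stood at 1.96 ± 0.35 (SE, edgeR adjusted p = 0.000409), just under the threshold, which it passed without embryo 2, embryo 5, embryo 7 or adult 1. With library size alone *Rfc2* fell under the threshold, at 1.83. The large subunit *Rfc1* (chr5:65261850-65335670, minus strand) went the other way. It measured 19.1 to 40.4 CPM in the embryos (median 29.8), against 55.4 and 52.7 CPM in adults 1 and 2. Every embryo was below both adults, and the log2 fold change was -0.94 ± 0.31 (SE, edgeR adjusted p = 0.0206). It failed the test without either adult, at -0.93 (edgeR adjusted p = 0.116) without adult 1 and -0.99 (edgeR adjusted p = 0.0962) without adult 2. Per kb, the mean levels of the 5 subunits ran from 5.92 CPM per kb for *Rfc1* to 73.8 CPM per kb for *Rfc4* in the embryos, a 12.5-fold range. They ran from 4.61 CPM per kb for *Rfc5* to 17.8 CPM per kb for *Rfc3* in the adults, a 3.85-fold range.

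*Rpa3*, the smallest RPA subunit (chr6:8255936-8259173, minus strand), measured 82.7 to 161 CPM in the embryos (median 98.0), against 18.6 and 20.4 CPM in adults 1 and 2. All embryos were at least 4 times either adult, with a log2 fold change of 2.49 ± 0.35 (SE, edgeR adjusted p = 7.59e-05). *Rpa2* measured 50.6 to 139 CPM in the embryos (median 102), against 28.1 and 20.0 CPM in adults 1 and 2, and sat on the threshold, at 2.00 ± 0.37 (SE, edgeR adjusted p = 0.000563). Its log2 fold change fell under 2 without embryo 2, at 1.98 (edgeR adjusted p = 0.00104), without embryo 3, at 1.94 (edgeR adjusted p = 0.000696), and without adult 2, at 1.77 (edgeR adjusted p = 0.0200). The same happened with DESeq2's Wald test (1.97), with DESeq2's size factors (1.97) and with library size alone (1.75). *Rpa1*, the large subunit, rose least of the 3, at 0.67 ± 0.27 (SE, edgeR adjusted p = 0.0456), and failed the test without embryo 2, embryo 5 or either adult. Per kb, the mean levels in the embryos ran from 20.0 CPM per kb for *Rpa1* to 164 CPM per kb for *Rpa3*, and in the adults from 12.5 to 29.1 CPM per kb for the same pair.

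*Pcna*, the sliding clamp (chr2:132249162-132253314, minus strand), had the highest mean level per kb of the 44 genes in the adults, 50.5 CPM per kb. It measured 87.1 to 294 CPM in the embryos (median 173), against 86.0 and 67.4 CPM in adults 1 and 2. The lowest embryo, embryo 1, barely exceeded adult 1, and the log2 fold change was 1.23 ± 0.38 (SE, edgeR adjusted p = 0.0140). It failed the test without adult 1, at 1.40 (edgeR adjusted p = 0.0620), and without adult 2, at 1.06 (edgeR adjusted p = 0.143). The processed copy *Pcna-ps2* reached at most 656 counts and at most 30.2 CPM, in different libraries. Some reads of *Pcna* may thus be assigned to the copy or lost as aligned in several places.

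**Figure D2:**
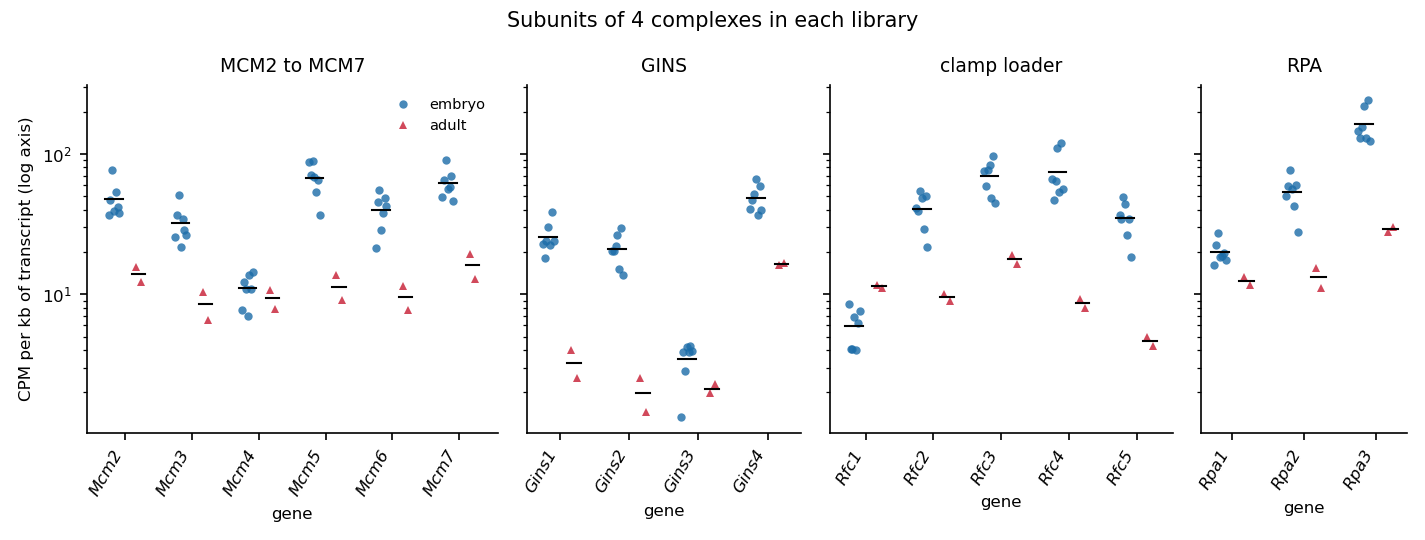
Level of each subunit of the MCM ring, GINS, the clamp loader and RPA in each library, as CPM per kb of the longest protein-coding transcript on a log axis. Circles are the 7 embryos, triangles the 2 adults and bars the group means. *Mcm4* lies in the same range at both stages, while *Rfc1* is the only subunit shown with every embryo below both adults.

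Okazaki fragment joining was represented by 2 genes, both higher by adjusted p alone and neither embryo high. *Fen1*, the flap endonuclease, measured 39.0 to 81.4 CPM in the embryos (median 58.7), against 24.9 and 17.9 CPM in adults 1 and 2, with a log2 fold change of 1.44 ± 0.32 (SE, edgeR adjusted p = 0.00205). *Lig1*, the DNA ligase, measured 57.4 to 93.2 CPM in the embryos (median 75.9), against 33.7 and 32.8 CPM in adults 1 and 2, with a log2 fold change of 1.14 ± 0.27 (SE, edgeR adjusted p = 0.00299). All 7 embryos were above both adults for each. Neither passed the test without adult 2. *Fen1* overlaps *Tmem258* and *Gm10143* on the opposite strand, and only the strand-specific count separates it from them.

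Nucleotide supply was represented by 4 genes, of which 2 were embryo high and all 4 were higher by adjusted p alone, with a median log2 fold change of 2.36. *Tyms*, thymidylate synthase (chr5:30058202-30073617, minus strand), measured 107 to 218 CPM in the embryos (median 135), against 20.4 and 18.8 CPM in adults 1 and 2. Its log2 fold change was 2.97 ± 0.36 (SE, edgeR adjusted p = 1.87e-05). *Tk1*, the thymidine kinase of the cytosol (chr11:117815526-117826092, minus strand), measured 38.6 to 101 CPM in the embryos (median 75.6), against 8.12 and 6.49 CPM in adults 1 and 2, with a log2 fold change of 3.24 ± 0.40 (SE, edgeR adjusted p = 2.38e-05). No embryo came within a factor of 4 of the adults for either gene. Ribonucleotide reductase makes deoxyribonucleotides from a large subunit, *Rrm1*, and a small one, *Rrm2*. *Rrm2* measured 43.0 to 52.7 CPM in the embryos (median 46.6), against 15.4 and 13.1 CPM in adults 1 and 2, with a log2 fold change of 1.75 ± 0.26 (SE, edgeR adjusted p = 0.000107). The 7 embryos were nearly level for *Rrm2*, and all were above both adults. *Rrm1* rose by 1.29 on the log2 scale.

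S-phase entry was represented by 3 genes, of which 1 was embryo high and 2 were higher by adjusted p alone. *Ccne1* encodes cyclin E1, which drives the step from G1 to S phase with CDK2 (chr7:38097984-38107534, minus strand). It measured 45.7 to 101 CPM in the embryos (median 56.8), against 6.38 and 4.75 CPM in adults 1 and 2. The lowest embryo was more than 7 times the higher adult. Without the length and GC correction, its log2 fold change of 3.50 ± 0.40 (SE, edgeR adjusted p = 1.27e-05) was the largest of the 44 genes. After it, *Ccne1* was at 2.91, under *Gins2* at 3.73, *Tyms* at 3.29 and *Rfc5* at 2.95. Its paralogue *Ccne2* measured 6.83 to 22.8 CPM in the embryos (median 8.95), against 14.0 and 15.9 CPM in adults 1 and 2. Embryos 6 and 7 lay above both adults and the other 5 below both, and the log2 fold change was -0.26 ± 0.45 (SE, edgeR adjusted p = 0.647). Reads opposite to *Ccne2* made up 28.7% of the reads on both strands together. *E2f1*, an activating E2F factor, rose by 1.11 on the log2 scale and did not pass without adult 2.

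**Figure D3:**
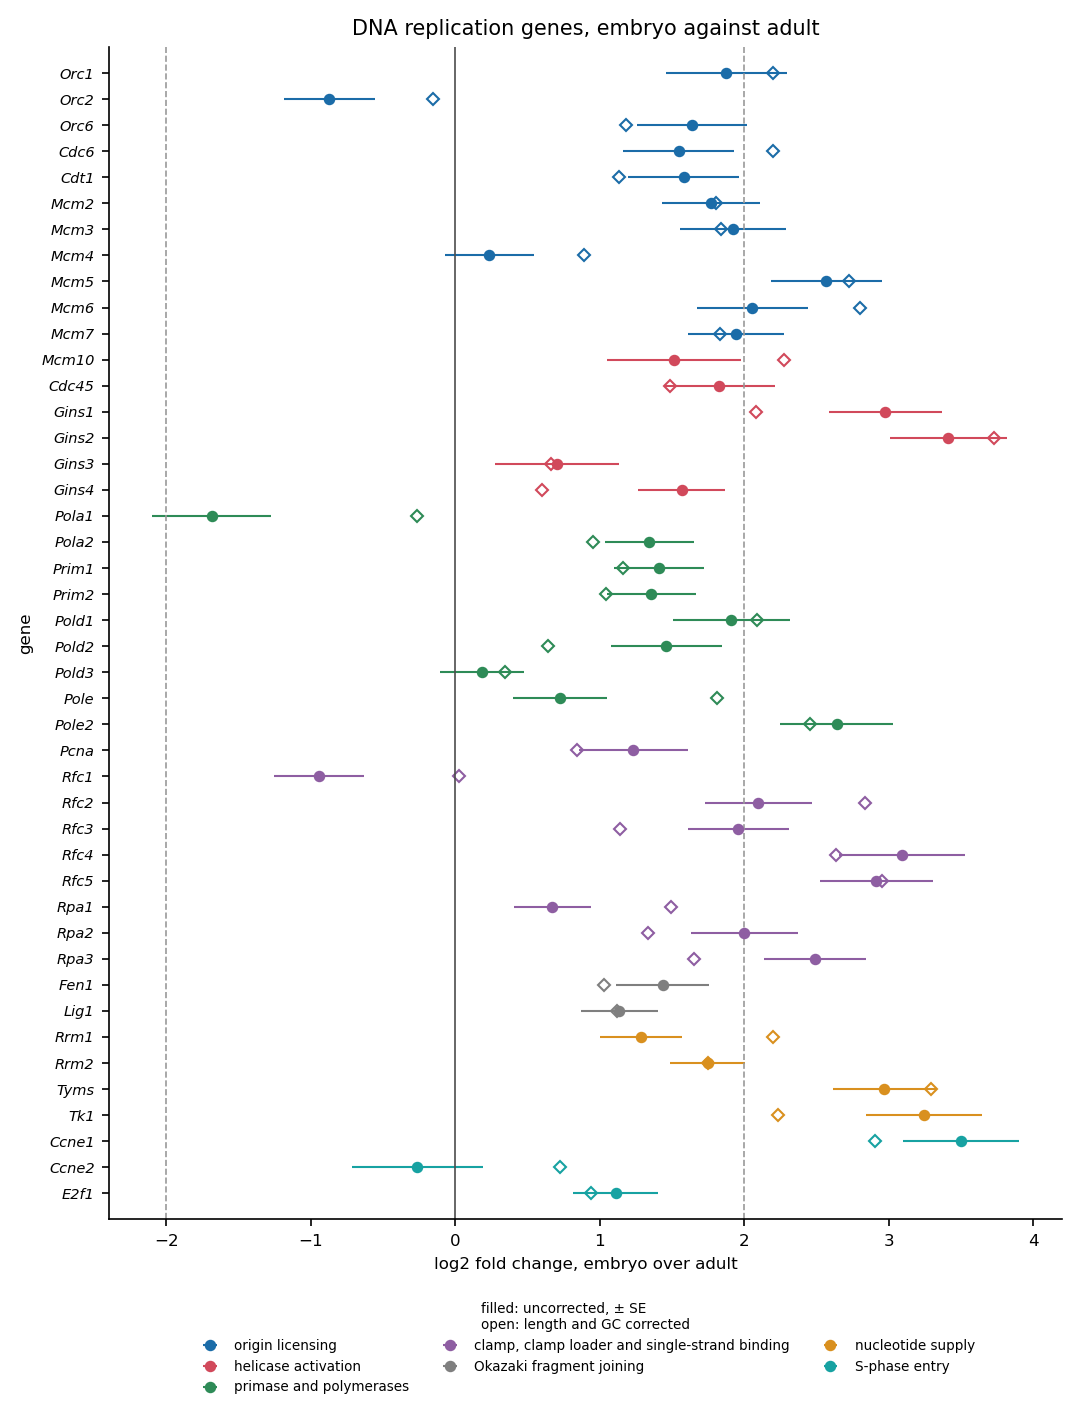
Log2 fold change of each of the 44 genes, embryo over adult, coloured by role. Filled circles with bars are the values ± SE, open diamonds the values after the length and GC correction, and dashed lines mark a fold change of 4. Uncorrected values run from -1.68 for *Pola1* to 3.50 for *Ccne1*.

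Pairs of genes with related functions were compared within each library, per kb, which removes the scaling between libraries but not a trend with length. The ratio of *Ccne1* to *Ccne2* was 3.52 to 19.1 in the embryos, against 0.685 in adult 1 and 0.450 in adult 2. *Rrm2b*, the small ribonucleotide reductase subunit used outside S phase, measured 1.99 to 10.6 CPM in the embryos (median 3.61), against 28.0 and 30.2 CPM in adults 1 and 2, with a log2 fold change of -2.62 ± 0.45 (SE, edgeR adjusted p = 0.000305). The ratio of *Rrm2* to *Rrm2b* was 9.12 to 54.4 in the embryos, against 1.14 and 0.901. *Tk2*, the mitochondrial thymidine kinase, measured 25.6 to 42.0 CPM in the embryos (median 31.5), against 29.1 and 25.6 CPM in adults 1 and 2, and the ratio of *Tk1* to *Tk2* was 2.24 to 5.16 in the embryos, against 0.466 and 0.424. For all 3 pairs the ranges of the stages did not overlap. *Tk2* itself did not pass the test, at 0.27 ± 0.28 (SE, edgeR adjusted p = 0.431).

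**Figure D4:**
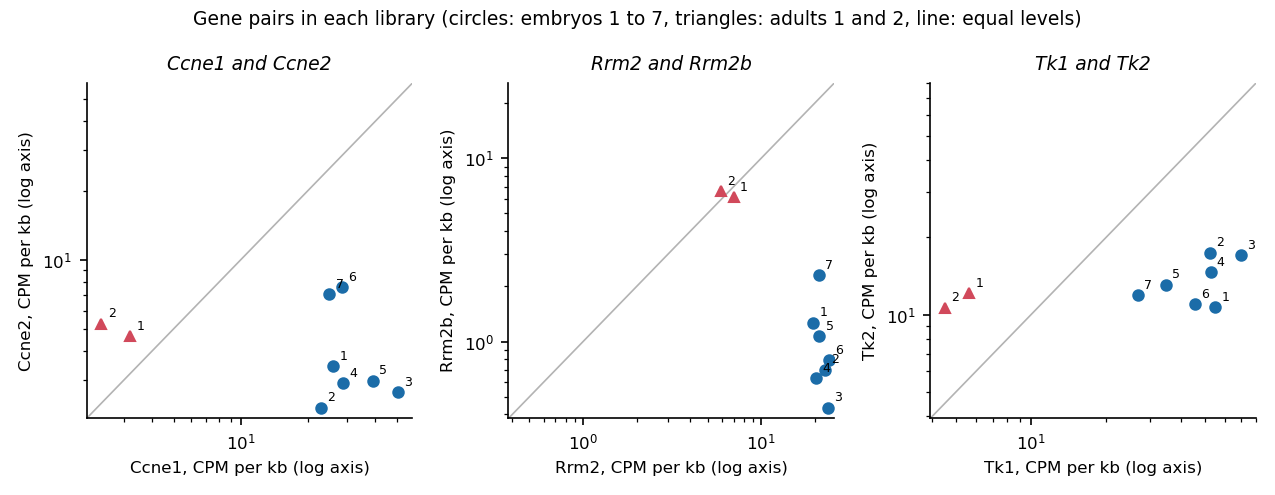
Level of both genes of each pair in each library, as CPM per kb on log axes, with circles for embryos 1 to 7, triangles for adults 1 and 2 and a line of equal levels. For *Ccne1* and *Ccne2* the embryo ratios run from 3.52 to 19.1, and the adults lie on the other side of the line at 0.685 and 0.450.

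Another 52 genes of the pathway were listed by role, and all 52 passed the filter. Of these, 8 were embryo high (15.4%, against 11.3% of all genes tested) and 1 adult high (1.92%, against 14.6%), with a median log2 fold change of 0.69. By adjusted p alone 24 were higher in the embryo (46.2%, against 24.0%) and 1 in the adult (1.92%, against 27.4%). The embryo high genes were *Dctpp1*, which clears abnormal nucleotides (3.77), *Rnaseh2c*, a subunit of the enzyme that removes RNA from DNA (2.85), *Chaf1b*, a histone chaperone subunit (2.64), *Cdk2*, the partner of cyclin E (2.26), *Uhrf1*, which acts in maintenance methylation (2.17), *Dscc1*, of an alternative clamp loader (2.17), *Gmnn*, the inhibitor of *Cdt1* (2.13), and *Timeless*, of the fork protection complex (2.06), all as log2 fold changes. *Rrm2b* was the adult high gene. *Top2a*, the topoisomerase of dividing cells, measured 42.5 to 79.0 CPM in the embryos (median 65.6), against 60.1 and 66.8 CPM in adults 1 and 2, and its groups overlapped. *Chtf8* is the symbol of 2 genes in the annotation, and its values were at most 1.05 CPM.

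Without embryos 1 and 4 the 52 genes again gave 8 embryo high and 1 adult high. Of the 52, 27 were then higher in the embryo by adjusted p alone (26.9% of all genes tested) and 3 in the adult (29.9%), where *Top1*, at -1.18 (edgeR adjusted p = 0.00222), and *Atad5*, at -1.92 (edgeR adjusted p = 0.000820), joined *Rrm2b*. Leaving out adult 2 took *Uhrf1* under the fold change threshold, at 1.95 (edgeR adjusted p = 0.0103), and *Timeless* and *Dscc1* past neither criterion, at 1.82 (edgeR adjusted p = 0.0549) and 1.85 (edgeR adjusted p = 0.0593). *Timeless* also fell under the fold change threshold without embryo 2, embryo 5 or embryo 7.

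The length and GC correction took 5 of the 8 under the fold change threshold, *Dctpp1* (to 1.95), *Rnaseh2c* (1.61), *Chaf1b* (1.98), *Dscc1* (1.54) and *Gmnn* (1.03). With the genes it brought past the threshold, 7 of the 52 were embryo high (13.5%, against 8.47% of all genes tested) and 0 adult high. The median of the list became 1.12, and by adjusted p alone 34 were higher in the embryo (65.4%, against 25.0%) and 2 in the adult (3.85%, against 23.2%).

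The list called cell cycle exit held 23 genes, all of which passed the filter, with a median log2 fold change of -0.20. It also holds the D cyclins with *Cdk4* and *Cdk6*, which act against the RB proteins, so its counts and median do not describe exit alone. Of the 23, 3 were embryo high (13.0%, against 11.3% of all genes tested) and 1 adult high (4.35%, against 14.6%), as also without embryos 1 and 4. By adjusted p alone 6 were higher in the embryo (26.1%, against 24.0%) and 7 in the adult (30.4%, against 27.4%), or 8 and 7 without embryos 1 and 4, where 26.9% and 29.9% of all genes were. Apart from the few adult high genes, the list thus lay close to all genes tested. *Rb1*, the retinoblastoma protein that holds E2F in check, was the adult high gene. It measured 3.29 to 10.7 CPM in the embryos (median 5.91), against 38.2 and 38.7 CPM in adults 1 and 2, with a log2 fold change of -2.71 ± 0.36 (SE, edgeR adjusted p = 4.09e-05). Its relative *Rbl2* and the inhibitor *Cdkn1b* lay at -1.75 and -1.66 on the same log2 scale, passing by adjusted p but short of the fold change threshold. The embryo high genes were the imprinted inhibitor *Cdkn1c* and, of the genes acting against RB, the kinase *Cdk4* and the cyclin *Ccnd3*. Others of that kind went the other way, with *Ccnd2* at -1.27 ± 0.28 (SE, edgeR adjusted p = 0.00183) and *Cdk6* at -1.21 ± 0.38 (SE, edgeR adjusted p = 0.0156), each with every embryo below both adults. *Cdkn1c* measured 1573 to 2282 CPM in the embryos (median 1825), against 21.0 and 58.7 CPM in adults 1 and 2, *Cdk4* 736 to 1612 CPM in the embryos (median 1215), against 181 and 138 CPM in adults 1 and 2, and *Ccnd3* 256 to 502 CPM in the embryos (median 318), against 69.0 and 85.9 CPM in adults 1 and 2. All 7 embryos were above both adults for these 3, and below both for *Rb1*. After the length and GC correction *Ccnd3* fell under the fold change threshold, at 1.66, *Rbbp4* passed it, at 2.80, *Rb1* lost its call, at -1.39, *Rbl2* was at -0.88 ± 0.31 (SE, edgeR adjusted p = 0.0346), and *Cdkn1b*, *Ccnd2* and *Cdk6* no longer passed, at -0.47 ± 0.28 (SE, edgeR adjusted p = 0.183), -0.03 ± 0.28 (SE, edgeR adjusted p = 0.927) and 0.82 ± 0.35 (SE, edgeR adjusted p = 0.0696). *Cdkn2c* was higher in the adult without the correction, at -1.52 (edgeR adjusted p = 0.00227), and after it, at -1.86 (edgeR adjusted p = 0.000233). The inhibitors *Cdkn1a*, *Cdkn2b* and *Cdkn2d* passed as higher in the adult only after it, at -0.90, -1.21 and -0.69. With the correction the list had 3 embryo high and 0 adult high genes, against 8.47% and 11.9% of all genes tested. By adjusted p alone it had 8 (34.8%) and 6 (26.1%), against 25.0% and 23.2%.

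The 10 genes of mitosis summed to 490.2, 438, 604, 577, 446, 684 and 453 CPM in embryos 1 to 7, and 131 and 140.3 CPM in the adults. Of the 10, 5 were embryo high (*Cdk1*, *Ccnb1*, *Birc5*, *Aurkb* and *Plk1*) and 0 adult high by edgeR, against 11.3% and 14.6% of all genes tested. Without embryos 1 and 4 the counts were the same, against 11.5% and 16.2%. After the length and GC correction 6 were embryo high and 0 adult high, against 8.47% and 11.9%, and 9 of the 10 were higher in the embryo by adjusted p alone, against 25.0%, instead of 5 without it, against 24.0%. *Mki67*, a common marker of cycling cells, is 1 of the 10 and was not called in any of these fits. It measured 9.37 to 45.5 CPM in the embryos (median 13.1), against 36.6 and 41.0 CPM in adults 1 and 2, and embryos 1 and 4 were the highest embryos, at 34.3 and 45.5 CPM. Every embryo but embryo 4 lay below both adults. The log2 fold change of *Mki67* was -0.88 ± 0.49 (SE, edgeR adjusted p = 0.148), and its transcript is 10061 bases long. Without embryos 1 and 4 it was -1.49 (edgeR adjusted p = 0.00153), so that *Mki67* was then higher in the adult by adjusted p.

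The embryos varied among themselves about as much in these genes as in others of similar level. The SD of log2 CPM over the 7 embryos had a median of 0.41 over the 44 genes and 0.56 over all genes tested. It was 0.44 over the 10831 tested genes whose mean level lay within the range of the 44. Without embryos 1 and 4 these medians were 0.39, 0.49 and 0.39. *Rrm2* had the lowest SD of the 44, 0.11, followed by *Orc1* at 0.16. *Ccne2*, *Pola1* and *Mcm10* had the highest, at 0.70, 0.68 and 0.65.

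The 44 genes did not peak in the same embryo. Embryo 3 had the highest level for 19 of them, among them *Mcm2*, *Mcm3*, *Mcm5*, *Mcm6*, *Mcm7*, *Cdc6*, *Cdc45*, *Ccne1* and *Tk1*. Embryo 6 had the highest level for 15, among them *Orc6*, *Gins1*, *Gins2*, *Pcna*, *Rfc3*, *Rfc4*, *Rrm1*, *Rrm2* and *Tyms*. Embryo 7 was lowest for 17 genes and embryo 1 for 16. The median deviation of the 44 genes from their mean over the embryos was -0.20, 0.02, 0.28, 0.08, -0.07, 0.29 and -0.24 on the log2 scale in embryos 1 to 7.

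In some embryos, which genes stood high went with their GC content. Over the 44 genes, the Spearman correlation of the deviation with transcript GC content was 0.28, 0.50, 0.62, -0.10, 0.28, -0.74 and -0.66 in embryos 1 to 7. Over all genes tested it was 0.00, 0.31, 0.33, -0.08, 0.19, -0.32 and -0.32, so the relation was weak in embryos 1, 4 and 5. Embryo 3 was thus higher for genes rich in GC and embryo 6 for genes poor in it. With transcript length the correlation over the 44 genes was -0.11, 0.22, 0.13, -0.49, 0.21, -0.26 and 0.27, and over all genes tested -0.03, 0.01, -0.19, -0.19, 0.16, -0.24 and 0.39. These correlations are across genes, which share a library and are not independent replicates.

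After each library was corrected for length and GC content, the median SD was 0.31 over the 44 genes, 0.48 over all genes tested and 0.34 over the genes of similar level. The median deviations were then 0.09, -0.17, 0.24, 0.11, -0.14, 0.16 and -0.26 in embryos 1 to 7. Embryo 3 was then the highest and embryo 7 again the lowest.

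Fold change was related to transcript length. Over the 44 genes the Spearman correlation between the log2 fold change and the length of the longest protein-coding transcript was -0.38, and over all 19371 genes tested it was -0.41. With the longest transcript of any kind the correlation over the 44 genes was -0.31, against -0.39 over all genes tested, and with the union of all exons it was -0.23, against -0.36. With the longest protein-coding transcript but without embryos 1 and 4 it was -0.34. Over the other 52 replication genes, with all embryos, it was -0.55. The points share libraries and depth and are not independent.

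At the median length of the 44 genes, 2879 bases, the 22 shorter genes had a median log2 fold change of 1.69, with 8 embryo high and 0 below 0, where 1747 of all 10156 genes up to that length were embryo high. The 22 longer genes had a median of 1.53, with 5 embryo high and 4 below 0, where 435 of all 9215 longer genes were embryo high. Those 4 were *Pola1* (5346 bases), *Rfc1* (4751), *Orc2* (3561) and *Ccne2* (3006). Over all genes tested, the median was 0.63 up to the same length and -0.68 above it. Both the short and the long replication genes thus had a higher median than all tested genes of like length.

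The correction for length and GC content took the correlation over the 44 genes to 0.11 and over all genes tested to 0.06. It left the median of the 44 genes at 1.58, against 0.06 over all genes tested. The short genes then had a median of 1.17 with 6 embryo high (761 of all 10156), and the long genes 1.84 with 10 embryo high (880 of all 9215). In all, 16 of the 44 genes were embryo high after correction (36.4%), against 8.47% of all genes tested, and 0 were adult high, against 11.9%. Of these 16, 11 were among the 13 without correction. *Rpa2* and *Rpa3*, both short, were no longer embryo high, and *Orc1*, *Cdc6*, *Mcm10*, *Pold1* and *Rrm1* became so.

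By adjusted p alone, 37 were higher in the embryo after correction (84.1%), against 25.0% of all genes tested, and 0 were higher in the adult, against 23.2%. The adult count was also 0 at an unadjusted p below 0.05 with edgeR after correction, whereas DESeq2, run without correction, gave 3. The 3 genes that had been higher in the adult did not pass in either direction. Their corrected log2 fold changes were -0.27 ± 0.31 (SE, edgeR adjusted p = 0.502) for *Pola1*, -0.15 ± 0.20 (SE, edgeR adjusted p = 0.546) for *Orc2* and 0.03 ± 0.35 (SE, edgeR adjusted p = 0.956) for *Rfc1*. *Pold2*, a short gene, also no longer passed, at 0.64 ± 0.26 (SE, edgeR adjusted p = 0.0613).

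*Pole*, the longest of the 44 at 7163 bases, rose after correction, at 1.81 ± 0.28 (SE, edgeR adjusted p = 0.000272), as did *Mcm4*, at 0.89 ± 0.23 (SE, edgeR adjusted p = 0.00777). *Mcm6* moved from 2.06 to 2.80 and *Rrm1* from 1.29 to 2.20, while *Tk1* moved from 3.24 to 2.24 and *Gins4* from 1.57 to 0.60. *Ccne2*, *Mki67* and *Top2a* changed sign, to 0.73, 0.96 and 1.30. *Rb1* and *Rrm2b* stayed lower in the embryo but under the fold change threshold, at -1.39 and -1.31. The correction removes any trend with length or GC content, whatever its source, so a technical trend and a difference in the kinds of genes used at each stage cannot be told apart.

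**Figure D5:**
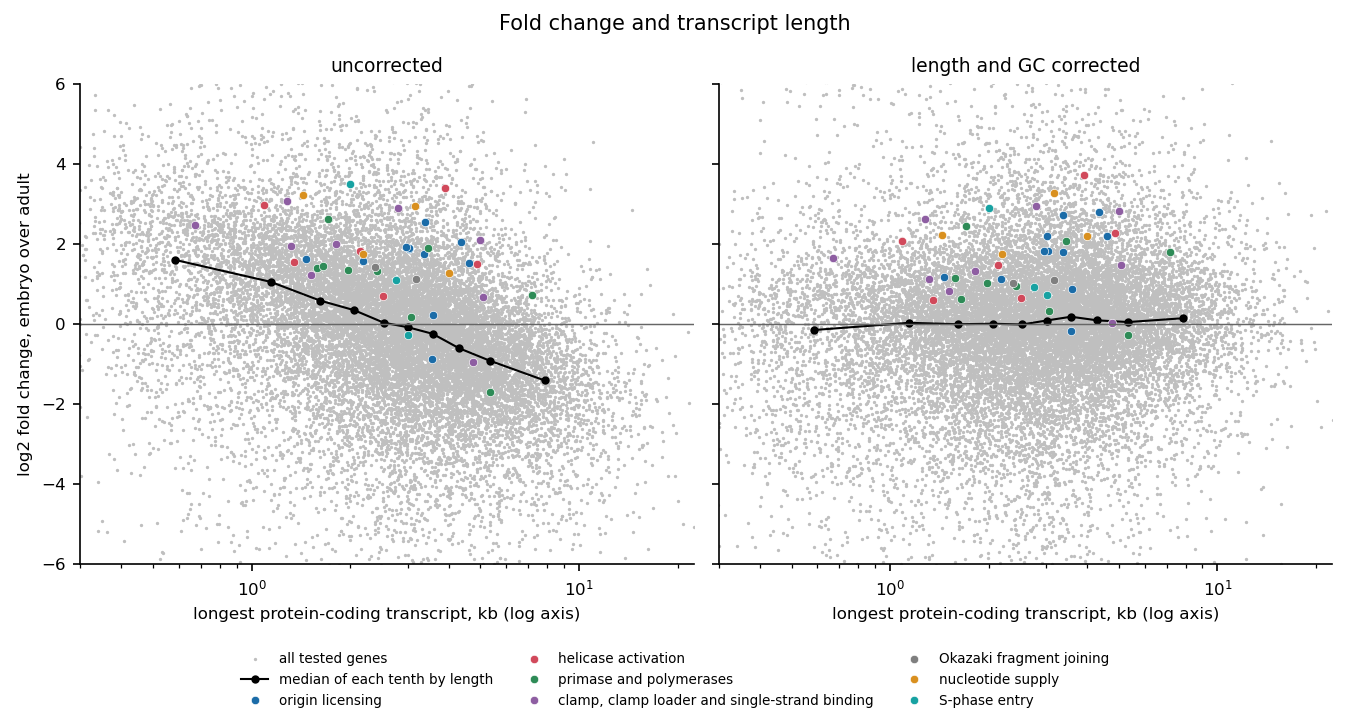
Log2 fold change, embryo over adult, against the length of the longest protein-coding transcript on a log axis, without correction on the left and after it on the right. Grey points are all tested genes, black points their median in bins of rising length, and coloured points the 44 genes by role, with a correlation of -0.38 on the left and 0.11 on the right.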

How the data were processed

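RNA was measured in 9 libraries, 7 of Rathke's pouch and 2 of adult pituitary, grouped by their labels. The authors made directional poly(A) libraries, trimmed reads with Trimmomatic 0.39, aligned them to mm10 with STAR 2.7.5b and deposited unnormalised counts, as read pairs on each gene of Ensembl release 96 (GENCODE mouse release 21). The strand-specific count was used, which held 18.4 to 21.8 times as many pairs as the opposite strand. Counted pairs were 16738863 to 36421545 per library. Lengths, GC content and positions in GRCm38 came from the annotation, and promoters from RefSeq (GRCm38.p6).

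Counts were scaled by TMM and fitted with edgeR 4.0.16 in R 4.3.3 by the quasi-likelihood test with stage alone in the design (common dispersion 0.190), over genes averaging 5 counts or more, the filter the study used. Adjusted p-values are Benjamini-Hochberg values over all genes tested. They rest on 7 and 2 animals, and with 2 adults the model borrows the spread across genes. Log2 CPM for the spread between embryos used a prior count of 0.5. The fits were tested on simulated data. Summaries were made in Python 3.11.15 with pandas 2.3.3, scipy 1.17.1 and numpy 2.4.6, and plots with matplotlib 3.10.9.

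Alternatives were DESeq2 1.42.0, its size factors or library size alone, other low-count filters, the unstranded count, other fold change thresholds, a replicate block, each library left out, embryos 1 and 4 left out, and per-library splines on length and GC content (4 degrees of freedom, fitted on genes averaging 50 counts or more). The longest protein-coding transcript as the measure of length, and the exon union as an alternative, were chosen after seeing the data. The genes and lists were chosen with earlier results of these data known. The rule for named genes took all 44, the called genes of the other replication and cell cycle exit lists, *Rrm2b*, *Tk2*, *Mki67* and *Top2a*. *Rbl2*, *Cdkn1b*, *Cdkn1a*, *Cdkn2b*, *Cdkn2c*, *Cdkn2d*, *Ccnd2*, *Cdk6*, *Rbbp4*, *Top1*, *Atad5* and the other mitosis genes were named after their values were seen. Sex was left out because it is not given per sample. One planned marker of the pouch is not reported here.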

Additional observations from a re-analysis of the deposited data

Results flagged for a closer look

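In each group of 7 embryo values, the highest or lowest was compared with its nearest neighbour relative to the whole range. Of 83 groups examined, 5 had a value far from the rest, 3 of them among 60 genes, and chance marks about 1 in 20 groups. *Orc6* was 144 CPM in embryo 6, where the other embryos were at 50.3 to 80.7 CPM. *Mcm2* was 258 CPM in embryo 3, against 124 to 181 CPM in the others. *Dscc1* was 3.15 CPM in embryo 1, against 9.17 to 13.0 CPM. Unmapped read pairs made up 10.3% in embryo 1, against 0.863% to 4.74%. The macrophage markers summed to 244 CPM in embryo 2, against 93.9 to 158 CPM. The causes were not tested.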

How the results depend on the processing

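The 13 embryo high replication genes became 7 when edgeR tested the fold change against 4 itself, 35 at a fold change above 2 (36 with 1 higher in the adult) and 36 by adjusted p alone (39 with 3 higher in the adult), since these settings move the threshold. Other fits gave 10 to 16, and leaving out 1 library gave 11 to 18. The 9 called among the other replication genes became 5 with library size alone, 2 when tested against 4, 25 at a fold change above 2 and 25 by adjusted p alone, with 6 to 10 when 1 library was left out. The 4 called among the cell cycle exit genes became 2, 12 and 13 at those 3 thresholds, with 4 to 4 when 1 library was left out. Over all genes, 5001 calls became 1744, 8960 and 9948 at those thresholds.

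The median log2 fold change of 1.61 became 1.37 with library size alone, which shifted the median of all genes by -0.22 (0.10 with the length and GC correction), and 1.57 to 1.85 without 1 library. The median SD between embryos of 0.407 was 0.357 to 0.434 without 1 embryo. The correlation with length of -0.38 became -0.23 with exon union length and 0.11 after the correction, which removes such trends by construction, and -0.42 to -0.34 without 1 library.

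Of 1140 gene values under 19 alternatives for 60 named genes, 1057 kept direction and side of the threshold, 49 dropped under it, 23 passed it and 11, in 6 genes, changed sign. The sign changes were *Pold3* with library size alone (-0.014) and the block (-0.13), and, after the length and GC correction, *Rfc1* (0.026), *Ccne2* (0.73), *Tk2* (-0.077), *Mki67* (0.96) and *Top2a* (1.30). *Top2a* was also at 0.029, 0.065 and 0.036 without embryos 2, 3 and 5 and 0.027 without adult 2. Their cause was not tested.

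With the replicate number as a block, on replicates 1 and 2 of each stage only, 13 replication, 6 other replication and 6 cell cycle exit genes were called, the median was 1.69, and all calls were 4151. Deviations of same-numbered libraries from their stage means correlated at 0.0758 and 0.0334. With 2 adults, the deviations of the adults are equal and opposite, so these values cannot decide whether the numbers pair the animals. With 1 adult left, that adult is assumed to vary like the embryos. Depth limits these genes little, as their lowest count was 45.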
